A study of Mus musculus with 12 samples.

Results

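The 6 Hunk knockout arrays of this series, out of 12 arrays in all, fell into 3 with high levels of most casein genes and 3 with low ones. The sides were chosen by 1 measured gene, Csn3 (kappa-casein). Arrays whose Csn3 probe set of highest mean read above 10 on the log2 scale were called milk-high (replicates 2, 3 and 6). Those below 10 were called milk-low (replicates 1, 4 and 5). Because the split came from measured values, every difference between its sides is a description of these 6 samples, not a test of a condition. The p-value threshold below serves only to say how many genes were set apart.

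All samples were mammary gland tumours of female FVB mice carrying MMTV-c-myc, in which the mammary tumour virus promoter, active in mammary epithelium, drives c-Myc. The knockout mice lacked Hunk, a kinase related to Snf1 and AMPK, through replacement of its putative promoter and exon 1 by a pGKneo cassette between LoxP sites. The 6 wild-type arrays held tumours with the same transgene and intact Hunk. Females of both genotypes had been mated before tumours were watched for, and no sample was of normal gland. Ages are not given in the sources used here. The labels number the arrays in each genotype but do not say that each was a separate mouse. A p-value therefore measures only how these samples vary, and some of that may be technical.

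Milk protein genes are switched on late in pregnancy, when prolactin acts through its receptor, the kinase Jak2 and the transcription factors Stat5a and Stat5b on alveolar luminal cells. Kit, the receptor for stem cell factor, marks luminal progenitors, and the keratin Krt19 marks luminal cells more broadly. After weaning the gland involutes under Stat3, with secretion of acute-phase proteins and breakdown of milk through lysosomes. In RNA from whole tumours, fewer cells of a type and less RNA per cell cannot be told apart.

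The deposited values are log2 GCRMA signals of 22690 probe sets, and a gene is read here from its probe set of highest mean. The Bacillus control probe set of highest signal gave each array a background of between 3.45 and 4.00. Precision is limited by how few arrays there are. The background was highest on replicate 3 of the knockout, at 4.00, against 3.60 to 3.70 on the other 5 knockout arrays. The beta-actin control, whose 3' minus 5' difference grows as RNA degrades, gave 1.59 ± 0.12 (SD, n = 3) in milk-high, 1.44 ± 0.16 (SD, n = 3) in milk-low and 1.29 ± 0.05 (SD, n = 6) in the wild type. Its part in the differences was not tested beyond its use as a covariate. Hunk stood at or below background on all 6 knockout arrays, between 2.60 and 3.06, so the targeted gene was undetected on both sides. It read 2.99 to 5.53 in the wild type and was at or below background on 2 of those 6 arrays too. Myc was 12.60, 13.28 and 12.69 in milk-high and 12.39, 13.54 and 13.34 in milk-low, and the sides overlapped.

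Replicates 4 and 5 of the knockout were unusually alike. The SD of their difference over all probe sets was 0.259 log2 units, against 0.441 to 0.509 between pairs of milk-high arrays and 0.609 and 0.613 between each of them and replicate 1. Pairs across the split gave 0.554 to 0.735. Whether replicates 4 and 5 came from 1 tumour or mouse is not given in the sources used here, so the comparison was also made with their mean as 1 sample. Muscle and fat genes stood high on single milk-high arrays, as described further on.

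Values are given below in the order of replicates 2, 3 and 6 for milk-high and 1, 4 and 5 for milk-low. For the 6 wild-type arrays the lowest, the median and the highest are given. Csn3, the gene of the rule, read 13.26, 14.07 and 13.77 against 5.48, 7.37 and 6.95. The values nearest the limit of 10 were thus 13.26 inside and 7.37 outside. The wild type read 11.15, 12.13 and 13.88, so the milk-low arrays lay below all other arrays and the milk-high arrays did not stand out.

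The other caseins set the milk-high arrays apart more widely. Csn2 (beta-casein) read 13.67, 14.22 and 14.08 against 2.30, 2.24 and 2.29, with means of 13.99 and 2.28. All milk-low values were below background, so the level was at least 1289-fold higher in milk-high, taking each dim value at its array's background. Csn1s1 (alpha-S1-casein) read 12.69, 12.99 and 13.31 against 3.10, 3.13 and 3.18, at least 649-fold higher by the same bound. Csn1s2a (an alpha-S2-casein) read 11.22, 11.30 and 12.92 against 3.39, 3.48 and 3.40, at least 286-fold higher. These 3 caseins were above their milk-low and wild-type levels on every milk-high array. Csn1s2b did not pass the filter and read between 3.36 and 4.05 on the 6 knockout arrays.

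In the wild type the other caseins followed Csn3 only in part. Csn2, Csn1s1 and Csn3 were all highest on replicate 2, but the order of the other arrays differed. Csn2 was above background on 2 of 6 wild-type arrays, at 12.85 on replicate 2 and 12.48 on replicate 3, and between 2.21 and 2.25 on the other four. Csn1s1 read 11.21 and 10.31 on those same arrays, 4.30 on replicate 6 and below background on the rest. Csn1s2a read 10.82 and 8.84 on replicates 2 and 3. Csn3 was 13.88 on replicate 2 but 11.45 on replicate 3, below the 12.78 of replicate 1 and the 13.66 of replicate 6, which had no Csn2 signal.

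**Figure D1:**
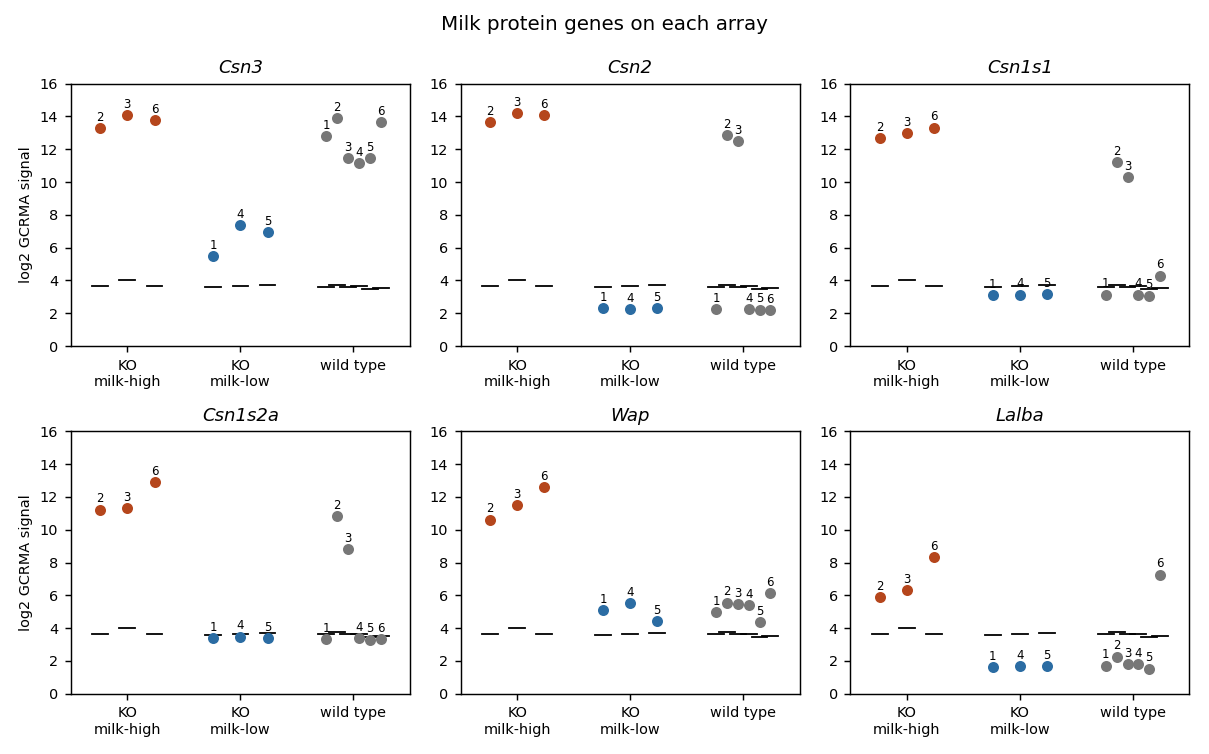
Log2 GCRMA signal (vertical axis) of 4 caseins, Wap and Lalba on each array, by milk-high knockout, milk-low knockout and wild type. Each point is 1 array with its replicate number, and black dashes are the array's background. Csn2 is near 14 on the 3 milk-high arrays, below background on the 3 milk-low arrays and high on wild-type replicates 2 and 3, whereas Csn3 is above 11 on all 6 wild-type arrays.

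The stretches of 250 bases before the starts of 3 casein genes and of Wap are shown because these genes were all high in milk-high. They are RefSeq sequences of GRCm38.p6, 5' to 3' on the gene's strand, with matches to TTCNNNGAA, the core of the site that Stat5 is known to bind, in capitals. The motif reads the same on both strands.
Csn1s1, chr5:87665958-87666207, plus strand: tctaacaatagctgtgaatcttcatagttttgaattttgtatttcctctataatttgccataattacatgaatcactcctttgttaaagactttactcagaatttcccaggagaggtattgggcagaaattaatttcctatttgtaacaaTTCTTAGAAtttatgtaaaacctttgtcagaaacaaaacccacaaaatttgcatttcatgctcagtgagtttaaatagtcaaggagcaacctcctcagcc
Csn2, chr5:87699426-87699675, minus strand: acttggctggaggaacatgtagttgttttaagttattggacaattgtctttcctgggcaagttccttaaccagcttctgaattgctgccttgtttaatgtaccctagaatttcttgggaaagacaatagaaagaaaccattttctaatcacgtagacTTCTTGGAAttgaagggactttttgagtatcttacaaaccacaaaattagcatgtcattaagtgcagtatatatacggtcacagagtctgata
Csn1s2a, chr5:87774200-87774449, plus strand: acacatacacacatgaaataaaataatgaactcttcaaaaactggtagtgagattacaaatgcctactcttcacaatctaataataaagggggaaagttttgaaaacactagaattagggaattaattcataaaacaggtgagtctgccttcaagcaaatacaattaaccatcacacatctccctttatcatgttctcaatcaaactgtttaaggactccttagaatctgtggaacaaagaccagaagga
Wap, chr11:6638650-6638899, minus strand: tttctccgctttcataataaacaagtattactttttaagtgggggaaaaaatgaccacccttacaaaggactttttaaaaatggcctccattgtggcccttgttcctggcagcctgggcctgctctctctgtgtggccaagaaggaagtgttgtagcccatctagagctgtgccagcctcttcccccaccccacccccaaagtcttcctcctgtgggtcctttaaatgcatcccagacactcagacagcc
Csn1s1 held 1 match, TTCTTAGAA, 92 to 100 bases before the start, and Csn2 held 1, TTCTTGGAA, 85 to 93 bases before it. The windows of Csn1s2a and Wap held 0, which says only that these letters are not in this window. Over all 27025 genes of the promoter table, 8.13% had a match. Among the genes set apart by the split, 1 of 25 higher in milk-high and 4 of 26 lower in milk-high with a listed promoter had one. A match is a description of the sequence and was not tied to binding here.

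Leaving out the caseins, 6821 genes were tested with limma, a linear model of each gene whose variance is steadied across genes. Of these, 66 (0.968%) passed a Benjamini-Hochberg adjusted p of 0.05 between the sides, 33 (0.484%) higher and 33 (0.484%) lower in milk-high. On all 66 the 3 milk-high arrays did not overlap the 3 milk-low arrays, and 64 differed by at least 2-fold. Over all genes, the milk-high arrays lay wholly above the milk-low arrays in 474 (6.95%) and wholly below in 768 (11.3%), together 1242 (18.2%). For a single value, 3 arrays against 3 cannot give an exact two-sided permutation p below 0.1. With replicates 4 and 5 averaged, 26 genes (0.381%) passed, 17 higher and 9 lower, and all 26 were among the 66. Leaving out replicate 1 raised the count to 190. It was 56 without replicate 2, 40 without replicate 3, 28 without replicate 4, 28 without replicate 5 and 41 without replicate 6. 25 of the 66 passed in all 6 of those fits. All 66 kept their direction, which was fixed in advance because their sides did not overlap.

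**Figure D2:**
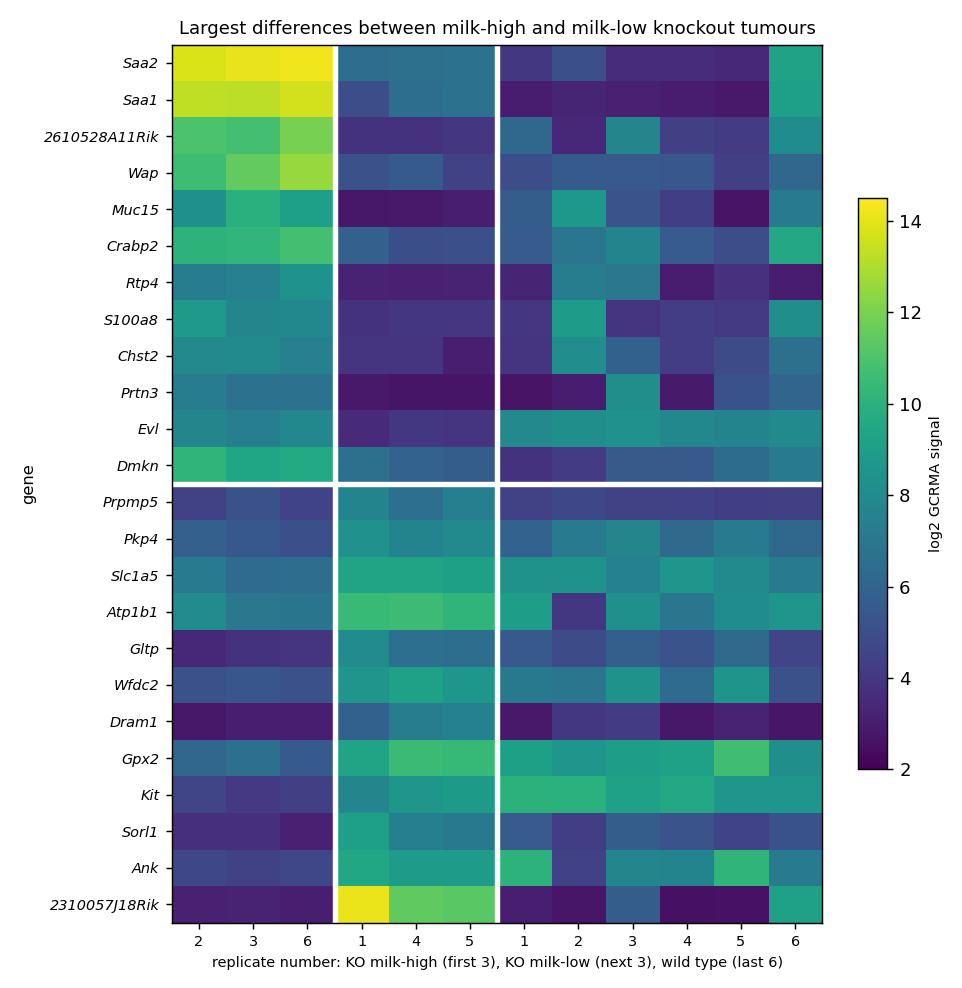
Log2 GCRMA signal (colour) of the 12 genes most above and the 12 most below in milk-high knockout arrays, caseins left out, among genes past the threshold. Columns are arrays by replicate number (3 milk-high, 3 milk-low, 6 wild type) and white lines part the groups. Evl is low only on the 3 milk-low arrays and Kit only on the 3 milk-high arrays.

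Acute-phase proteins made the largest non-casein differences among genes higher in milk-high. Saa2 (serum amyloid A2) read 13.81, 14.10 and 14.22 against 6.47, 6.64 and 6.71, a difference of 7.44 (SE 0.17), or 174-fold. Saa1 read 13.32, 13.24 and 13.65 against 4.99 to 6.66, a difference of 7.36 (SE 0.45). Both probe sets can match related transcripts, so the signal of these near-identical genes cannot be fully parted. In the wild type Saa2 read 3.45, 3.82 and 9.22, with the highest value on replicate 6, and all 3 milk-high arrays stood above all other 9. Orm1 (orosomucoid, an acute-phase plasma protein) read 6.94, 7.80 and 7.49 against 4.03, 4.20 and 4.31. Lbp, which binds bacterial lipopolysaccharide, read 7.75, 8.12 and 8.29 against 5.72, 5.90 and 5.62, but the wild type read 7.28, 7.63 and 8.35, so the milk-low arrays were the ones apart. Lcn2 (lipocalin 2, which binds bacterial siderophores) read 12.37, 12.85 and 12.65 against 10.94, 10.80 and 10.84, with the wild type at 11.56, 12.21 and 12.87. Saa3 read 10.49, 8.22 and 9.89 against 5.81, 6.42 and 6.13, without overlap but not past the threshold.

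Of 23 whey and other milk proteins listed, 21 were measured and 18 tested. 6 were past the threshold higher in milk-high and 1 lower. Of the 18, 11 lay wholly above and 1 wholly below, against 6.95% and 11.3% of all genes. The list's median difference was 1.85, against -0.04 over all genes tested. Wap (whey acidic protein) read 10.62, 11.50 and 12.59 against 5.08, 5.53 and 4.44, a difference of 6.55 (SE 0.53), and the wild type reached only 6.15. Muc15, a mucin of the milk fat globule membrane, read 8.29, 9.94 and 9.05 against 2.80, 2.85 and 3.06, all 3 below background, so it was at least 43.2-fold higher. The wild type spanned that whole range, with 2.68, 5.46 and 8.64. Muc1, another membrane mucin, read 7.67, 7.36 and 9.15 against 4.88, 4.49 and 4.69. Glycam1, a mucin-like protein secreted into milk, read 7.42, 6.11 and 6.99 against 3.52, 3.65 and 3.60, at least 9.07-fold higher. Xdh, the xanthine oxidoreductase that coats milk fat droplets, read 9.24, 9.76 and 9.44 against 7.19, 7.64 and 7.79. Lcn2, given above, was the sixth, and Wfdc2 was the 1 lower. With replicates 4 and 5 averaged, Wap, Muc15 and Lcn2 passed and Muc1, Glycam1 and Xdh did not. Abundant members Wfdc18 and Slpi read 12.99 to 13.26 and 9.40 to 9.69 in milk-high against 12.60 to 13.08 and 9.08 to 9.48 in milk-low, so their sides overlapped.

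Lalba (alpha-lactalbumin, the lactose synthase cofactor) had a mean over the 12 arrays below the filter and was not tested. It read 5.87, 6.31 and 8.32 against 1.61, 1.69 and 1.68, at least 9.03-fold higher. In the wild type it was above background on replicate 6 alone, at 7.27, an array without Csn2 signal. Of 13 tested genes that supply lactose, ions and nutrients to milk, 0 passed the threshold, and the median was 0.55. In this list 6 lay wholly above and 2 wholly below, against 6.95% and 11.3% of all genes. Slc7a5 and Slc3a2, the chains of the large neutral amino acid transporter, averaged 11.12 ± 0.62 against 10.09 ± 0.13 and 10.36 ± 0.38 against 9.60 ± 0.02 (SD, n = 3 on each side), in both cases without overlap. The glucose transporter Slc2a1 overlapped, at 9.58 to 10.33 against 8.09 to 10.04. The water channel Aqp5 ran the other way, at 9.22, 8.47 and 7.09 against 12.62, 10.26 and 10.26.

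Milk fat genes differed less as a list. Of 28 tested, 9 lay wholly above and 1 wholly below, against 6.95% and 11.3% of all genes. The median was 0.38, and 1 gene was past the threshold. Lpl, the lipase that frees fatty acids from blood lipoproteins, was the one past it, at 9.41, 9.32 and 10.36 against 6.51, 6.14 and 6.46, a difference of 3.33 (SE 0.32). It stood above all 9 other arrays. Scd1 (stearoyl-CoA desaturase) read 11.30, 9.39 and 13.04 against 8.87, 8.58 and 8.80. Thrsp, a regulator of lipogenesis, read 12.03, 11.31 and 11.07 against 9.96, 10.26 and 10.06. Fabp5, a fatty acid binding protein, read 13.10, 11.92 and 12.51 against 11.39, 11.83 and 11.83. Acly and Scd2 overlapped between the sides. Plin2, which coats lipid droplets, read 11.62, 11.40 and 12.62 against 9.56, 7.23 and 6.89 and did not pass. Outside the naming rule, and chosen after their values were seen, Lipa (lysosomal acid lipase) read 9.28, 8.91 and 8.98 against 6.49, 5.98 and 6.26, and Abhd5, the activator of adipose triglyceride lipase, 10.20, 10.06 and 10.43 against 8.50, 7.37 and 7.25. Lipa was past the threshold also with replicates 4 and 5 averaged, whereas Abhd5 passed only with them separate and in 1 of the 6 fits that left out an array.

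Fat cell genes were uneven within milk-high. Adipoq (adiponectin) read 6.29 on replicate 2 and 1.83 to 2.08 on the other 5 knockout arrays, all below background. Ucp1, the uncoupling protein of brown fat, read 6.93 on replicate 2 and 2.35 to 2.46 elsewhere in the knockout. Cidea, a lipid droplet protein of brown fat and of the lactating gland, read 7.39 and 7.73 on replicates 2 and 6 and 2.95 on replicate 3. Fabp4 read 11.19, 8.03 and 8.83 against 6.89, 8.54 and 8.56, so replicate 2 alone was above the milk-low arrays by more than 1 unit. The mean over the 16 measured adipocyte markers was 4.29 to 5.45 in milk-high and 3.64 to 3.98 in milk-low, and 7 were at or below background on all 12 arrays. Cd36, a fatty acid transporter of fat, endothelium and mammary epithelium, read 8.89, 6.48 and 8.78 against 5.06, 4.28 and 4.67. Without replicate 2, the count past the threshold in the milk fat list was 2 of 28 and its median 0.36. Skeletal muscle genes were high on replicate 3, with Acta1 (skeletal actin) at 12.41 and Myh1 (a fast myosin heavy chain) at 10.93 there. Elsewhere in the knockout Acta1 was 5.20 at most and Myh1 3.56 at most. The mean over the 20 muscle markers was 3.15 to 6.06 in milk-high and 3.09 to 3.13 in milk-low.

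**Figure D3:**
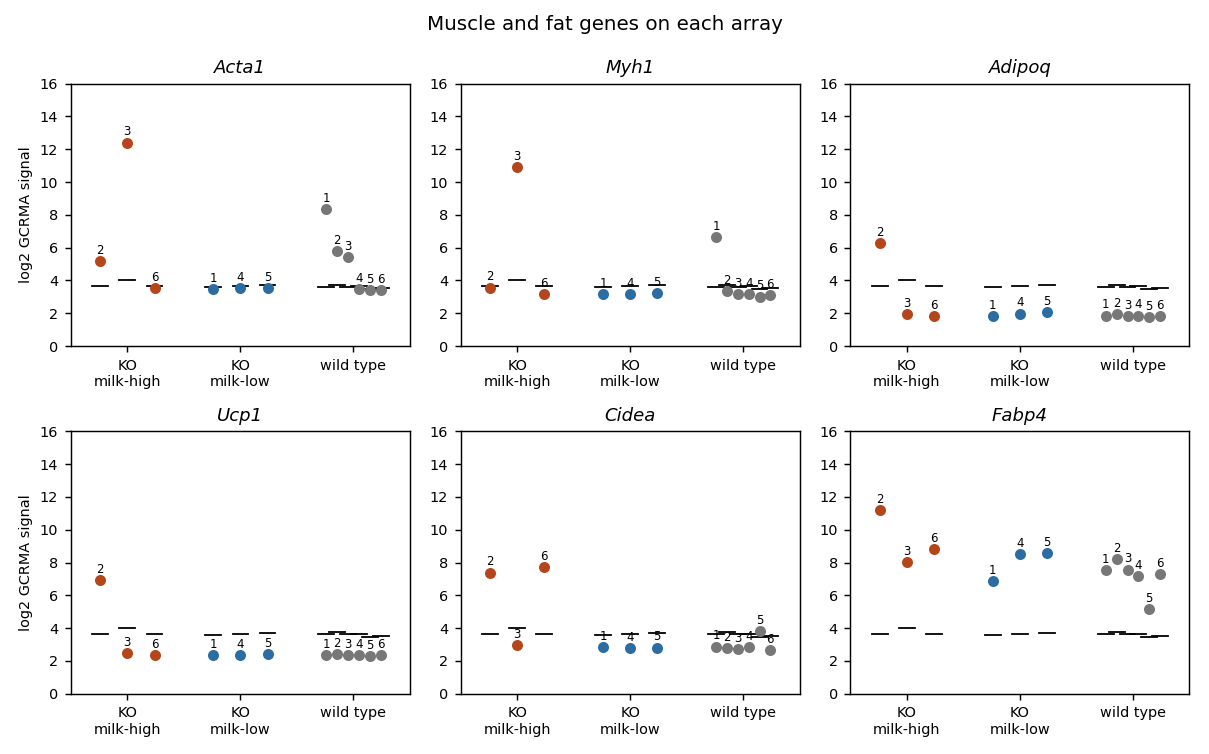
Log2 GCRMA signal (vertical axis) of muscle (Acta1, Myh1) and fat (Adipoq, Ucp1, Cidea, Fabp4) genes on each array, by group. Points carry replicate numbers and black dashes are array background. Acta1 and Myh1 are highest on knockout replicate 3, and Adipoq and Ucp1 are above background on knockout replicate 2 alone.

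The prolactin pathway was read from 24 listed regulators, 16 of them tested. None passed the limma threshold (0 of 16), and the median was 0.29. Of the 16, 4 lay wholly above and 1 wholly below, against 6.95% and 11.3% of all genes. Stat5a read 6.05, 6.15 and 6.32 against 5.94, 4.74 and 4.81, and Stat5b 5.77, 6.28 and 5.98 against 5.61, 5.17 and 4.61. Socs3, a feedback inhibitor of cytokine receptors, read 5.41, 6.05 and 6.03 against 3.57, 4.24 and 4.87. Elf5, the ETS factor of alveolar cells, overlapped at 10.78, 10.98 and 11.29 against 10.97, 9.92 and 9.87. Its wild-type values were 7.13, 8.58 and 9.84. Another ETS factor, Ehf, ran the other way, at 8.84, 8.78 and 9.14 against 9.77, 9.61 and 10.49. Id2 and Cebpb, both needed for alveolar growth, overlapped between the sides, at 11.30 to 12.16 against 10.83 to 11.36 and 10.20 to 11.11 against 10.20 to 10.43.

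Secretory load was read from 32 tested genes of the unfolded protein response and secretion. None passed the limma threshold. In this list 8 lay wholly above and 0 wholly below, against 6.95% and 11.3% of all genes, and the median was 0.22. That median was 0.13 with replicates 4 and 5 averaged and 0.075 to 0.34 with each array left out, lowest without replicate 4, and 2 genes passed without replicate 1. Hspa5 (BiP, the main chaperone of the endoplasmic reticulum) read 13.23, 12.56 and 12.64 against 12.08, 11.81 and 11.72. Calr (calreticulin) read 12.86, 12.88 and 12.80 against 12.43, 11.90 and 12.01, and Hsp90b1 (GRP94) 12.23, 11.48 and 11.98 against 10.53, 10.09 and 10.94. Manf and Pdia6, of the same compartment, differed by 1.26 and 1.03. Xbp1, the transcription factor of the pathway, overlapped at 11.50 to 11.60 against 10.24 to 11.59.

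Genes of involution and the lysosome gave 3 past the threshold of 23 tested, namely Saa1, Saa2 and Lcn2. In this list 9 lay wholly above and 0 wholly below, against 6.95% and 11.3% of all genes, and the median was 0.45. Cd14, a co-receptor for lipopolysaccharide, read 9.96, 9.51 and 10.54 against 7.28, 8.81 and 8.62. Igfbp5, a growth factor binding protein of the involuting gland, read 8.73, 9.47 and 11.21 against 2.48, 8.09 and 8.20, so most of its gap came from replicate 1. The cathepsins Ctsb and Ctsl overlapped, at 11.14 to 12.12 against 11.07 to 11.67 and 11.32 to 11.73 against 11.02 to 11.47. Clu (clusterin) overlapped too, at 10.81 to 12.28 against 10.59 to 11.29.

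S100a8, a subunit of calprotectin, read 8.78, 7.75 and 7.82 against 3.85, 3.97 and 3.98, a difference of 4.19 (SE 0.30). Prtn3 (proteinase 3, best known from neutrophils) read 7.28, 6.73 and 6.73 against 2.88, 2.69 and 2.71, at least 9.56-fold higher. Both also reached high values in some wild-type tumours, S100a8 at 8.91 on replicate 2 and 8.24 on replicate 6 and Prtn3 at 8.18 on replicate 3. The neutrophil markers Ngp, Camp, Elane, Mpo and Csf3r were at or below background on all 12 arrays. S100a9, the partner of S100a8, read 5.22, 4.32 and 3.61 against 3.60 to 3.63. Over the 16 measured neutrophil and mast cell markers the mean was 3.58 to 3.78 in milk-high and 3.26 to 3.34 in milk-low, and 12 were at background everywhere; 1 of the 4 tested was past the threshold. The macrophage gene Lyz2 overlapped, at 9.17, 9.11 and 10.58 against 10.86, 9.26 and 9.01, as did the list's mean, at 5.41 to 5.88 against 5.37 to 5.81.

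The remaining genes of the 12 most above in milk-high were of mixed function. 2610528A11Rik read 10.96, 10.78 and 11.93 against 3.85, 3.84 and 3.97, a difference of 7.34 (SE 0.32). Crabp2, which carries retinoic acid to the nucleus, read 10.09, 10.21 and 10.77 against 5.85, 5.01 and 5.05. The receptor chaperone Rtp4, known as an interferon-induced gene, read 7.23, 7.42 and 8.43 against 3.24, 3.15 and 3.19, at least 16.4-fold higher. In the wild type Rtp4 was 7.29 and 6.94 on replicates 2 and 3 and 2.99 to 3.79 on the others. Replicates 2 and 3 were the wild-type arrays with Csn2, and also those highest in the interferon genes Bst2 and Usp18, given below. The interferon list, which does not hold Rtp4, gave 0 of 10 past the limma threshold. That list had 4 wholly above and 1 wholly below, against 6.95% and 11.3% of all genes. The mean over its 29 measured genes was 4.14 to 4.81 in milk-high and 3.83 to 3.86 in milk-low, without overlap, and 3.69 to 5.55 in the wild type. Of those 29 genes, only 10 were above the filter, and 5 were at or below background on all 12 arrays. That mean did not allow for the higher background of knockout replicate 3. Members with means below the filter, and so untested, included Bst2, a membrane protein that tethers viruses, at 5.11, 4.61 and 6.93 against 3.24, 3.34 and 2.72, and Usp18, which removes the ubiquitin-like Isg15, at 3.95, 3.29 and 6.64 against 2.31, 2.61 and 2.49. Both, chosen after their values were seen, were highest on replicate 6 and at or below background in milk-low. Usp18 was below background on milk-high replicate 3 as well. On wild-type replicates 2 and 3 Bst2 read 4.14 and 4.94 and Usp18 5.63 and 5.25. The other wild-type arrays read 2.38 to 2.47 for Bst2 and 2.31 to 2.65 for Usp18. Chst2, a carbohydrate sulfotransferase, read 7.89, 8.0 and 7.44 against 3.87, 3.87 and 3.07. Dmkn (dermokine, secreted by stratified epithelium) read 10.20, 9.33 and 9.64 against 6.61, 5.91 and 5.68. Evl, a regulator of actin filaments, read 7.74, 7.34 and 7.78 against 3.53, 4.03 and 3.87 while the wild type read 7.65, 7.93 and 8.34, so its level was low on the 3 milk-low arrays and not elsewhere.

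Among the genes lower in milk-high, Kit was below all other arrays. It read 4.60, 4.05 and 4.36 against 7.75, 8.64 and 8.81, a difference of -4.06 (SE 0.32), or 16.7-fold. The wild type read 8.56, 9.37 and 10.05, also where Csn2 was high. With the tested probe sets of Kit averaged, its difference between the sides was smaller, at -2.81, and still past the threshold. The luminal progenitor markers differed in both directions. Of 7 tested, 1 (Lbp) was past the threshold higher and 1 (Kit) lower. In this list 3 lay wholly above (Lbp, Cd14 and Plet1) and 2 wholly below (Kit and Ehf), against 6.95% and 11.3% of all genes. Plet1 read 12.08, 12.69 and 12.38 against 11.99, 11.10 and 11.43, and Sox10 overlapped at 8.15 to 9.16 against 8.44 to 10.04. Krt19 read 11.33, 12.51 and 11.22 against 8.22, 10.54 and 10.05, with the wild type at 3.30, 6.66 and 9.13. The milk-high arrays thus stood above the other 9 in Krt19, but its difference of 2.09 (SE 0.65) did not pass the threshold. The Krt19 difference was 1.10 with the beta-actin 3' minus 5' value, which was 1.59 in milk-high and 1.44 in milk-low on average, as a covariate, and 1.40 without replicate 1.

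Defining luminal markers were present on both sides. Epcam read 11.51, 11.57 and 11.68 against 12.41, 11.64 and 11.51, and Krt8, Krt18 and Cd24a also overlapped, all between 10.87 and 13.14. Of 12 tested luminal keratins and surface markers, 1 (Muc1) was past the threshold. The hormone receptors Esr1 and Pgr, which define the hormone-sensing luminal cells, were at or below background on all 12 arrays. Cited4, a CBP and p300 co-activator on the hormone-sensing list, was the 1 of 3 tested past the threshold, at 8.19, 8.28 and 8.07 against 10.05, 9.65 and 9.41. It did not pass with replicates 4 and 5 averaged, and passed in 1 of the 6 fits that left out an array. Of 14 tested basal and myoepithelial markers, 0 passed limma's threshold and 3 lay wholly above, against 6.95% of all genes. Krt14, a basal keratin, read 8.02, 9.24 and 9.46 against 3.68, 6.77 and 6.90, whereas its basal partner Krt5 read 3.50 to 4.36 over the knockout and Acta2 overlapped at 9.27 to 9.60 against 8.75 to 9.34.

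The largest difference lower in milk-high was 2310057J18Rik, at 3.14, 3.26 and 3.03 against 14.11, 11.44 and 11.30. With all 3 milk-high values below background, this amounted to at least 365-fold less. In the wild type it was 9.16 on replicate 6 and 5.68 on replicate 3 and below background on the rest. Ank, a membrane protein that exports pyrophosphate, read 4.70, 4.46 and 4.67 against 9.44, 8.87 and 8.84, a difference of -4.44 (SE 0.22). Sorl1, a sorting receptor of the endosome, read 3.72, 3.70 and 3.16 against 9.04, 7.41 and 7.03, with 2 of the milk-high values at or below background. Gpx2, a glutathione peroxidase of epithelia, read 6.11, 6.58 and 5.53 against 9.29, 10.50 and 10.37. Dram1, an autophagy gene induced by p53, read 2.80, 3.04 and 3.03 against 5.89, 7.30 and 7.48, at least 8.68-fold lower. Wfdc2, a secreted whey acidic protein domain protein, read 5.12, 5.36 and 5.08 against 8.50, 9.16 and 8.55.

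Of the other genes among the 12 most below in milk-high, Slc1a5, a glutamine transporter, read 7.09, 6.39 and 6.45 against 9.31, 9.31 and 9.09, a difference of -2.59 (SE 0.24). Atp1b1, the beta subunit of the sodium pump, read 8.02, 6.97 and 6.86 against 10.43, 10.55 and 10.18. Gltp, which moves glycolipids, averaged 3.71 ± 0.28 (SD, n = 3) against 7.03 ± 0.88 (SD, n = 3). Of its 3 milk-high values, 2 were at or below background. Pkp4, an armadillo protein of junctions, read 5.83, 5.46 and 5.03 against 8.31, 7.66 and 7.92. Prpmp5, listed as a proline-rich protein, read 4.46, 5.09 and 4.51 against 7.62, 6.54 and 7.40. Chosen after their values were seen, Trim2 (a ubiquitin ligase) and Tgfb1 (transforming growth factor beta 1) were also past the threshold. Trim2 read 4.91, 5.32 and 5.54 against 7.87, 7.30 and 7.92, and Tgfb1 4.19, 4.38 and 4.33 against 6.52, 6.94 and 6.19. Trim2, Tgfb1, 2310057J18Rik, Ank, Kit, Wfdc2 and Slc1a5 passed also with replicates 4 and 5 averaged. Sorl1, Gpx2, Dram1, Gltp, Atp1b1, Pkp4 and Prpmp5 did not.

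Replicate 1 differed from replicates 4 and 5 within milk-low in a set of secretory genes, also chosen after their values were seen. Scgb1b27, a secretoglobin, read 14.49 on replicate 1, 8.67 and 8.74 on replicates 4 and 5 and 3.81 to 3.98 in milk-high. Scgb2b27 read 13.28, 7.25 and 7.40 against 3.26 to 3.51, and Mucl2, a mucin-like gene, 12.58, 7.05 and 8.87 against 3.74 to 4.07. Car6, a secreted carbonic anhydrase, read 12.90, 7.38 and 7.44 against 6.24 to 7.15, and Lpo (lactoperoxidase) 11.31, 7.14 and 7.05 against 5.61 to 7.64. These 5 genes did not pass the threshold, and for Lpo the sides overlapped. In the wild type Scgb2b27 was 11.05 on replicate 6 and at most 3.60 elsewhere, whereas Car6 ranged from 6.28 to 13.19.

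**Figure D4:**
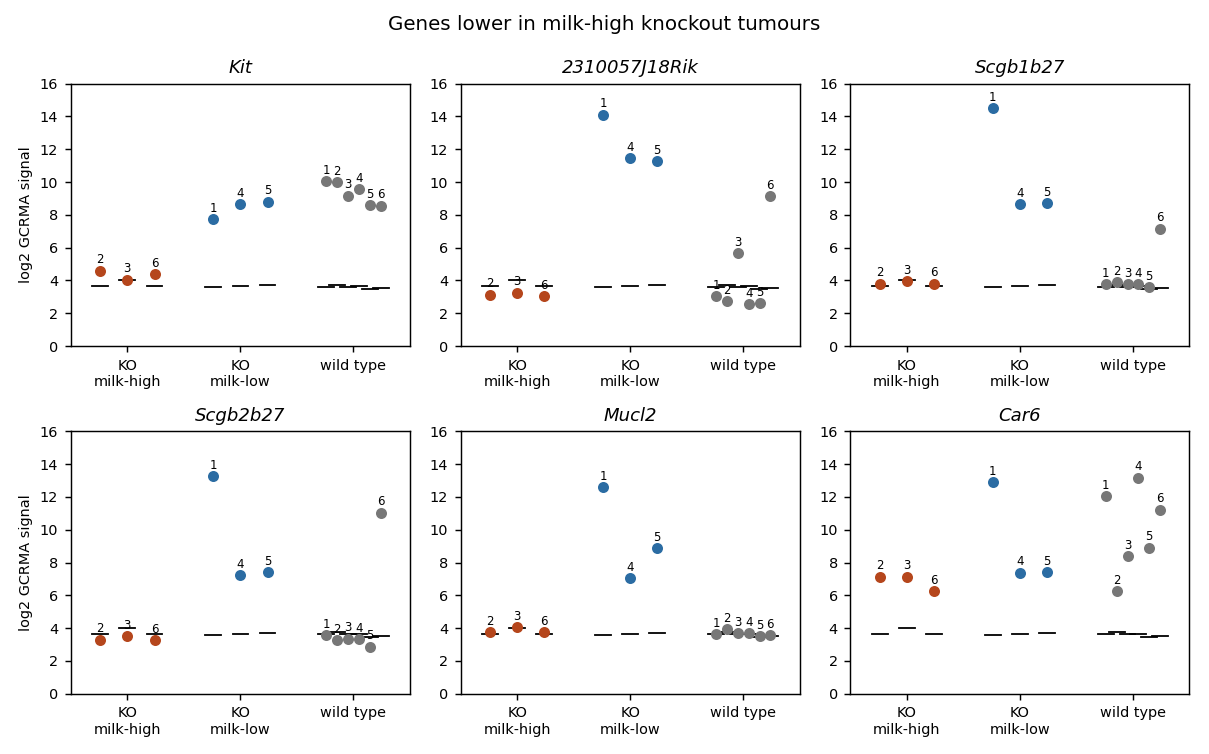
Log2 GCRMA signal (vertical axis) of 6 genes lower in milk-high knockout arrays, by group, with replicate numbers beside the points and black dashes for array background. Kit is lowest on the 3 milk-high arrays, and Scgb1b27, Scgb2b27, Mucl2 and Car6 are highest within milk-low on replicate 1.

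In the DNA replication, cell division, ribosomal protein, Myc target and cell junction lists 0 genes passed the limma threshold, and their medians were below 0. Of 34 tested DNA replication genes, 0 lay wholly above and 6 wholly below, and the median was -0.34. Mcm2, a subunit of the replicative helicase, read 7.24, 6.15 and 6.37 against 8.29, 8.40 and 8.33, and Mcm6 and Mcm7 of the same helicase differed by -0.53 and -0.77. Pcna, the sliding clamp, overlapped at 9.97 to 10.82 against 10.79 to 10.89. Of 38 cell division genes, 0 lay wholly above and 2 wholly below (median -0.19), and Cdc20 overlapped at 8.91 to 9.49 against 8.98 to 9.67. Of 22 cytosolic ribosomal protein genes, 1 had a positive difference, Rps29 at 0.15. In that list 9 lay wholly below and 1 wholly above, and Rplp0 differed by -0.23. Of 36 Myc targets and nucleolar genes, 4 were positive, 4 lay wholly below and the median was -0.21, while the abundant Npm1 differed by 0.26. Among 30 cell junction genes, 1 lay wholly above and 8 wholly below (median -0.23). Cldn3 read 9.57 to 9.96 against 9.97 to 10.94, and Ctnnb1 overlapped. With each array left out, the median ran from -0.49 to -0.18 for DNA replication, from -0.42 to -0.02 for cell division, from -0.37 to -0.03 for Myc targets and from -0.30 to -0.15 for junctions. The values nearest 0 came without replicate 6, replicate 1, replicate 6 and replicate 4. With replicates 4 and 5 averaged, cell division gave -0.34 and Myc targets -0.13. Other lists of growth control had medians near 0, at 0.01 for G1 cyclins and CDK inhibitors, -0.01 for Myc network partners and 0.05 for growth factor receptors and ligands, in which Kit was the 1 gene past the threshold. The counts wholly below stand beside 11.3% over all genes, and those wholly above beside 6.95%.

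**Figure D5:**
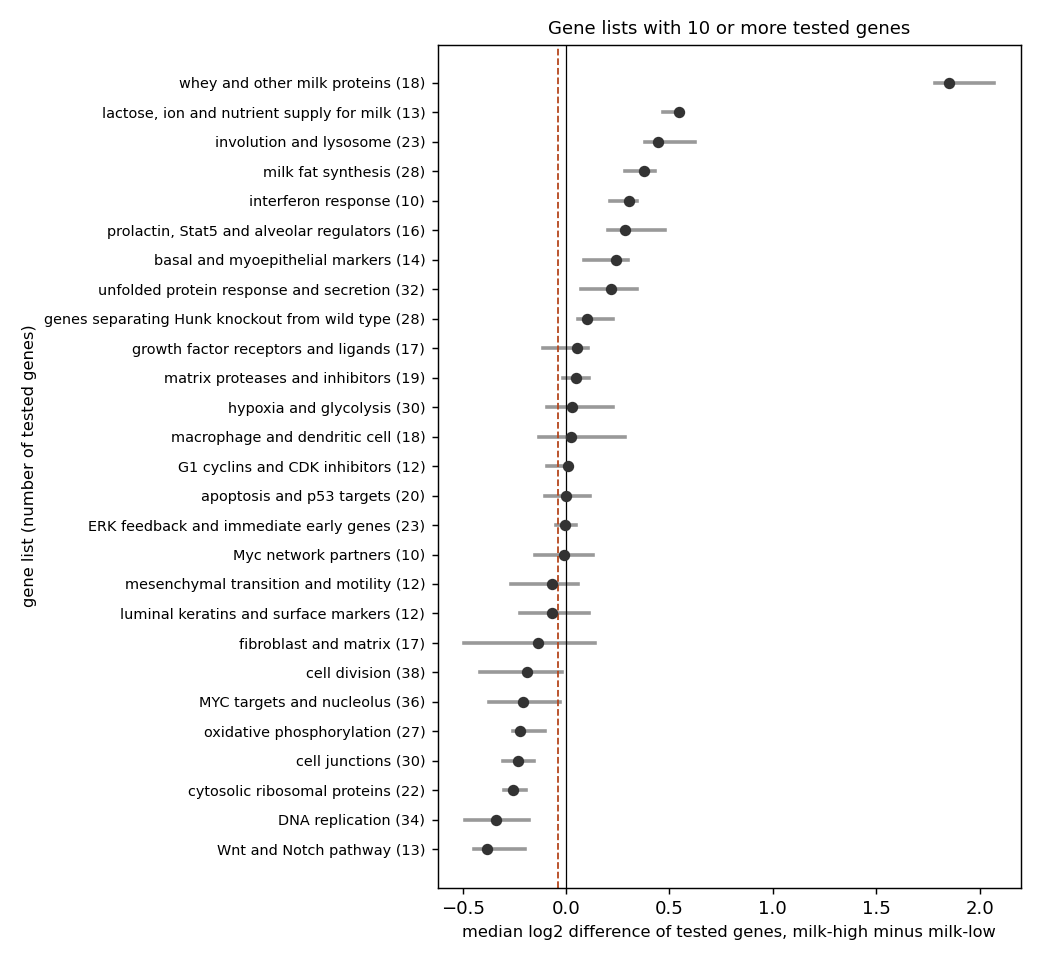
Median log2 difference, milk-high minus milk-low, of the tested genes in each list with at least 10 of them (points), with the range when each knockout array was left out in turn (grey bars). The dashed line is the median over all genes tested, -0.04. Whey and other milk proteins lie farthest to the right, at 1.85, and the Wnt and Notch pathway, DNA replication and ribosomal protein lists lie to the left.

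The wild-type arrays showed to which side each gene of the split was unusual. Of the 33 genes higher in milk-high, the wild-type mean lay nearer milk-low in 25 and nearer milk-high in 8. Of the 33 lower, it lay nearer milk-high in 19 and nearer milk-low in 14. Over all genes the 3 milk-high arrays stood above the other 9 in 105 (1.54%) and below them in 133 (1.95%). The 3 milk-low arrays stood above the other 9 in 204 (2.99%) and below in 90 (1.32%). Among the 33 higher genes, 18 had the milk-high arrays apart from the other 9 and 11 the milk-low arrays apart. Among the 33 lower genes these numbers were 11 and 19. The genes thus included both ones peculiar in level to milk-high, such as Wap, Saa2 and Kit, and ones peculiar to milk-low, such as Evl and Lbp. Others were only just apart. The milk-low arrays stood above the other 9 in Wfdc2, but their lowest value was 8.50 and the wild type ran from 5.10 to 8.46.

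The wild-type arrays, which the rule did not use, allowed 1 test. A limma fit of each gene on Csn3 within the 6 wild-type arrays gave 0 of 6821 genes (0%) past an adjusted p of 0.05, and 362 at an unadjusted p under 0.05, 98 with a positive slope and 264 with a negative one. Of the 33 genes higher in milk-high, 25 had a positive slope, and of the 33 lower, 28 a negative one, where 54% of all genes had a positive slope. These genes were picked for moving together in the knockout, and all slopes share the same 6 arrays. The counts are therefore not separate agreements. In the same limma fit, 3 of the 33 higher and 6 of the 33 lower genes had an unadjusted p under 0.05, counted whatever the sign of the slope. Wild-type Csn3 values formed 2 clusters, at 11.15 to 11.48 and at 12.78 to 13.88, and 3 arrays in each are too few for a correlation within them. In that fit the slopes of Calr, Hspa5, Hsp90b1 and Manf were 0.25, 0.32, 0.25 and 0.36 log2 units per unit of Csn3, none past the adjusted threshold. The median slope was smaller, at 0.11, over the 32 tested genes of the unfolded protein response and secretion. The slope of Kit was 0.12, with a sign opposite to its difference in the knockout.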

How the data were processed

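RNA of 12 mammary tumours was hybridised to Affymetrix arrays, per the labels' protocols (Trizol total RNA, biotin-labelled cRNA). The values deposited by the authors are log2 signals, made with GCRMA per the submitters' processing notes (its version, and any scan date or other batch, are not given in the sources used here). They were used as deposited, and 0 columns were left unused. GCRMA compresses differences near background.

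Gene names came from the platform annotation, updated through a RefSeq table of GRCm38.p6. Of 22690 probe sets, 20380 had 1 symbol, 691 several and 1555 none, and 64 were controls. Each gene was read from the probe set with the greatest average over the 12 arrays and tested where that average exceeded the median probe-set mean (3.98). Of the genes past the threshold, 26 had several tested probe sets, 0 of them with opposite signs, and for 12 the probe set has an _x_at or _s_at suffix and may match related transcripts.

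The split was fitted with limma 3.58.1 (lmFit, eBayes with trend) in R 4.3.3 on the 6 knockout arrays, and Csn3 as a continuous term on the 6 wild-type arrays, with Benjamini-Hochberg adjustment at 0.05. Caseins were left out of counts. The steps were tested on simulated data. Lower bounds take each dim value at its array's highest Bacillus control. Promoters came from RefSeq, cut to the 250 bases before the start. Figures were drawn with matplotlib 3.10.9. The members and the 41 gene lists were chosen with earlier results of these data known, so no list count is independent support. Named genes were the markers, caseins and Hunk, the 12 largest differences in each direction past the threshold without overlap, and up to 4 abundant members of each list. Alternatives were other filters, variance models, normalizations, gene summaries, thresholds, a background floor, a beta-actin covariate, Csn3 as a continuous term, all 12 arrays in 1 fit, replicates 4 and 5 averaged and leaving out each array.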

Additional observations from a re-analysis of the deposited data

Results flagged for a closer look

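Among the 6 arrays of a genotype, a value was picked out where its gap to the nearest other value exceeded Dixon's limit as a share of the whole range. Of 230 groups of values looked at, for the named genes and the array controls, 28 were picked out (12.2%), where chance flags about 1 in 20 and the genes are not independent.

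On knockout replicate 1, of the milk-low side, Car6 was highest at 12.90, Lpo at 11.31 and Epcam at 12.41, and Igfbp5 was lowest at 2.48 and Cd24a at 11.61. Knockout replicate 2, of the milk-high side, had the highest Adipoq (6.29) and Ucp1 (6.93). Knockout replicate 3, also milk-high, had the highest Acta1 (12.41), Myh1 (10.93), Csn1s2b (4.05) and background (4.00). Hunk was lowest on knockout replicate 4 at 2.60, below background, and Cebpb highest on knockout replicate 6 at 11.11.

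Wild-type replicate 6 had the highest Saa2 (9.22), Saa1 (9.03), Scgb1b27 (7.16), Scgb2b27 (11.05), Lalba (7.27) and Abhd5 (7.87). The wild-type array with the highest Glycam1 was replicate 3 (6.42), and that with the highest Myh1 was replicate 1 (6.63). Wild-type replicate 2 was lowest in Trim2 (3.92), Aqp5 (7.92) and Slc3a2 (8.37). Wild-type replicate 5 had the highest Clu (13.31) and Cidea (3.83) and the lowest Fabp4 (5.17) and Igfbp5 (3.32).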

How the results depend on the processing

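The count of 66 genes stayed between 56 and 84 without a filter, with a stricter filter, under both variance models, quantile normalization, median centring, a background floor, the mean of probe sets, a beta-actin covariate, Csn3 as a continuous term and all 12 arrays in 1 fit. It was 26 with replicates 4 and 5 averaged, 111 at an adjusted p under 0.1 and 846 at an unadjusted p under 0.05. Leaving out 1 knockout array gave 28 to 190. In the 12-array fit 43 of its 84 genes were among the 66, and with the beta-actin covariate 43 of 67. The wild-type Csn3 count was 0 under every filter, variance model and normalization tried and with each of the 6 arrays left out, and 362 at an unadjusted p under 0.05. For the 105 named genes, 2073 values under alternatives gave 0 reversals of a called difference. Most alternatives could not have given one, so that 0 is no support. A called gene's sides do not overlap, so leaving out 1 array or averaging replicates 4 and 5 keeps its sign. Other filters, variance models and thresholds leave the difference as it is. Of the 2073 values, 77 were no longer past the threshold and 58 newly past it. The 58 include values that passed only because the threshold was loosened, with the difference unchanged. Of 328 list medians, 20 moved by more than 1 SD. Leaving out replicate 3 took the skeletal muscle median from 1.61 to 0.18, and leaving out replicate 2 took the adipocyte median from 1.36 to 0.43. No paired analysis was possible because the labels describe no pairing of arrays. Signal over background limits genes such as Csn2, which has only a bound in milk-low.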
